A study of Homo sapiens with 6 samples.

Results

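The 41 genes described here serve the endoplasmic reticulum (ER) stress response and the amino acid response, and they were taken by symbol from the 17860 genes of the deposited expression table. The list was compiled from 15 ER chaperones and folding enzymes, 4 genes of ER-associated degradation, 4 genes for the stress sensors and XBP1, and 18 genes of the arm run by the transcription factor ATF4. HCC1806/HM3 is a liver-metastatic derivative of the human triple-negative breast cancer line HCC1806, and its cells stably carried a lentiviral control shRNA (shNC, 3 samples) or a lentiviral shRNA against MSLN, which encodes the surface protein mesothelin (shMSLN, 3 samples). Both groups were grown in the same medium with no stress agent named in the labels, and poly(A) RNA was sequenced. Infected cells were selected as a population with G418, and the labels name no second hairpin, so loss of MSLN and any other action of this hairpin cannot be told apart.

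Proteins that enter the ER are folded by chaperones and by oxidoreductases that form disulfide bonds. When unfolded protein builds up, the sensors IRE1 (gene ERN1), PERK (gene EIF2AK3) and ATF6 act: IRE1 splices the XBP1 message, ATF6 is cleaved into a transcription factor, and both raise chaperone and degradation genes. PERK slows protein synthesis while favouring translation of ATF4, and the kinase GCN2 does the same when amino acids run short, so that genes for amino acid synthesis and import follow ATF4 in either case. Levels of these messages were measured here, whereas XBP1 splicing, ATF6 cleavage and ATF4 translation cannot be read from values per gene.

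MSLN itself stood at 231, 226 and 227 CPM (counts scaled to library size) in the shNC samples and at 37.1, 36.2 and 35.4 CPM in the shMSLN samples, which left 15.9% of the control level. Libraries held between 17507837 and 18512135 estimated counts. Of the counts above 100 reads, 47.7% were exactly whole as deposited, with no tolerance, in shMSLN replicates 2 and 3 each, against 3.4% to 7.0% in the other 4 samples, so results are also given for shMSLN replicate 1 alone. All 9 markers of squamous and basal breast epithelium were detected, and their summed level was 3455 to 3842 CPM in shNC and 3017 to 3095 CPM in shMSLN, with KRT14 below 5 CPM in every sample. KRT5 made up most of that sum and was lower in shMSLN (log2 fold change -0.38), as were KRT6A (-1.04), TP63 (-0.22) and SFN (-0.19). DSG3 (0.84), CDH1 (0.15) and KRT17 (0.16) were higher. Markers of other cell types summed to 63.1 to 66.7 CPM in shNC and 63.7 to 67.6 CPM in shMSLN. Over the 6 samples, COL1A1 (29.7 to 32.4 CPM) and CD68 (20.8 to 25.1 CPM) made up most of that sum. VWF, at 4.60 to 7.17 CPM, was higher in shMSLN (log2 fold change 0.41), and 3 of the 9 listed were at 0 or missing in at least 1 sample.

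All 41 members passed the filter on low counts. By edgeR's quasi-likelihood test with Benjamini-Hochberg adjustment over 14552 genes, 15 members had an adjusted p below 0.05, 6 of them higher and 9 lower in shMSLN. These are 36.6% of the members, where 34.6% of all tested genes were called, 16.6% as higher and 18.0% as lower, so the share of members called was near the background. The median size of a member's log2 fold change was 0.083, against 0.144 over all tested genes. Groups did not overlap in 18 members, 9 in each direction, while 46.2% of all tested genes had groups that did not overlap. Only ERO1A was called with a log2 fold change of at least 0.4 in size. The labels do not say whether replicates were separate cultures, so p-values measure the spread between these samples, which may be technical.

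**Figure D1:**
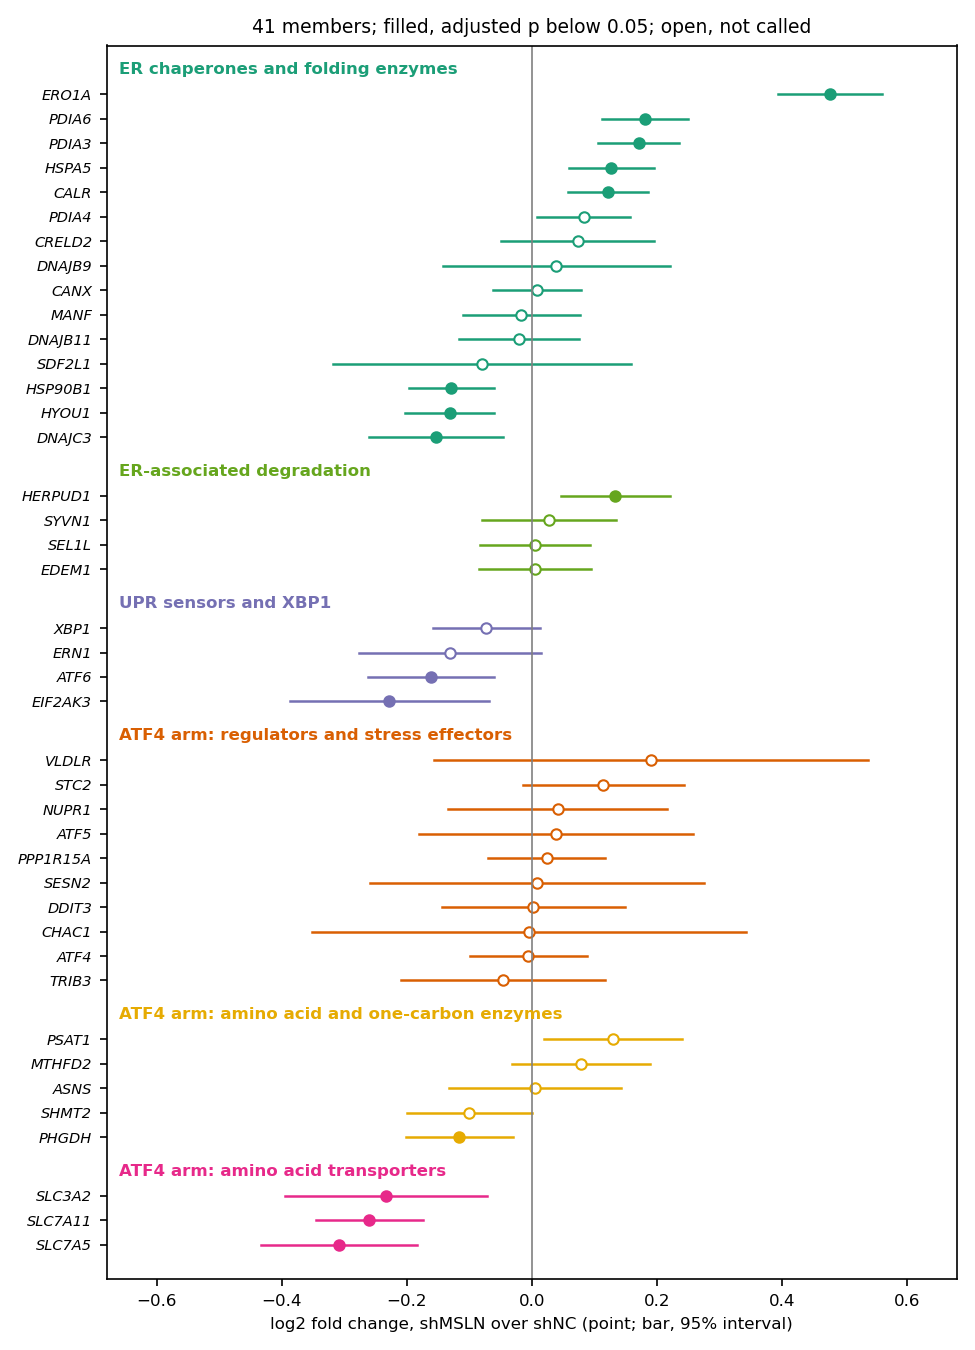
The log2 fold change of each of the 41 members, shMSLN over shNC, is plotted by role, with bars for 95% confidence intervals and filled points for an adjusted p below 0.05. ERO1A lies apart at 0.48, folding genes lie on both sides of 0, the 10 ATF4-arm regulators and effectors have open points around 0, and the 3 amino acid transporters have filled points between -0.31 and -0.23.

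Among the 15 ER chaperones and folding enzymes, 5 rose, 3 fell and 7 were not called in shMSLN, with a median log2 fold change of 0.04 against 0.00 over all tested genes. The 5 that rose were ERO1A, PDIA6, PDIA3, HSPA5 and CALR, and the 3 that fell were DNAJC3, HYOU1 and HSP90B1. ERO1A (chr14:52639916-52695900, GRCh38) encodes the oxidase that hands oxidizing power to the protein disulfide isomerases. It measured 103, 103 and 107 CPM in the shNC samples and 143, 146 and 146 CPM in the shMSLN samples. Every shMSLN sample exceeded every shNC sample, and the values within each group lay close together. The log2 fold change was 0.48 (SE 0.039, 95% interval 0.39 to 0.56, adjusted p = 3.00e-07), a level 1.39 times that of shNC. ERO1A remained called in each of the 17 alternative settings, including shMSLN replicate 1 alone, with log2 fold changes from 0.46 to 0.51.

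Disulfide isomerases rearrange the bonds that ERO1A's oxidation feeds. PDIA6 measured 716, 696 and 725 CPM in shNC and 812, 805 and 804 CPM in shMSLN. The groups were separate, with a log2 fold change of 0.18 (SE 0.032, adjusted p = 0.000545). PDIA3, the isomerase that works with the lectin chaperones on glycoproteins, had a log2 fold change of 0.17 (SE 0.030, adjusted p = 0.00055) and also separate groups, at 2032 to 2125 CPM in shNC and 2325 to 2369 CPM in shMSLN. PDIA4 was higher in every shMSLN sample (326 to 335 CPM) than in any shNC sample (305 to 319 CPM), but its log2 fold change of 0.08 was not called (adjusted p = 0.0799). It was called with upper-quartile scaling and on the length-scaled log2(TPM + 1), where TPM is a transcript level scaled for length and depth, and in none of the other 15 settings. In the annotation used here, 25.2% of the PDIA6 exon bases overlap exons of ATP6V1C2 on the opposite strand and 14.8% of those of PDIA3 overlap ELL3, and whether counting used strand is not stated, so part of these reads may belong to those neighbours.

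HSPA5 encodes BiP, the ER's HSP70 chaperone, which binds the stress sensors as well as unfolded protein. Its level was 1918, 1846 and 1955 CPM in shNC and 2061, 2090 and 2095 CPM in shMSLN. All shMSLN samples were above all shNC samples, by a small margin, at a log2 fold change of 0.13 (SE 0.032, 95% interval 0.06 to 0.19, adjusted p = 0.00601). CALR, a lectin chaperone that binds calcium, was at 2361 to 2460 CPM in shNC and 2619 to 2654 CPM in shMSLN (log2 fold change 0.12, adjusted p = 0.00555). CANX, its membrane-bound counterpart, was not called, at a log2 fold change of 0.01 with a 95% interval from -0.06 to 0.08.

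HSP90B1 encodes GRP94, the ER's HSP90 chaperone, and was the most abundant member per length together with CALR. It went the other way from HSPA5, at 3659, 3496 and 3745 CPM in shNC and 3285, 3319 and 3365 CPM in shMSLN. The groups did not overlap, and the level fell by 0.13 on the log2 scale (SE 0.032, adjusted p = 0.00595). HYOU1, an ER chaperone and nucleotide exchange factor for BiP, was at 596 to 625 CPM in shNC and 552 to 566 CPM in shMSLN (log2 fold change -0.13, adjusted p = 0.00717). DNAJC3, a co-chaperone of BiP also known to inhibit PERK, was at -0.15 (adjusted p = 0.0288). HSP90B1's call was lost on log2(TPM + 1) (adjusted p = 0.0551), those of HYOU1 and DNAJC3 without shMSLN replicate 2 or 3, and that of DNAJC3 also without shNC replicate 2 or 3, with upper-quartile scaling, with DESeq2 and on log2(TPM + 1). HSP90B1 has 2 pseudogenes and PDIA3 has 2 by name in the annotation, none of them listed in the table.

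The remaining uncalled folding genes had small estimates. DNAJB9 and DNAJB11, J-domain partners of BiP, had log2 fold changes of 0.04 and -0.02. MANF and CRELD2, ER proteins that can be secreted and are known to be induced by ER stress, were at -0.02 and 0.07. SDF2L1, an ER protein that works with DNAJB11, was at -0.08 with the widest interval of the list, from -0.32 to 0.16. With shMSLN replicate 1 alone against the 3 shNC samples, ERO1A was the single folding gene still called as higher and 0 were called as lower, all 8 keeping their direction.

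HERPUD1, which organizes the ubiquitin ligase complex that clears misfolded ER protein, was the 1 called of the 4 degradation genes. It measured 122, 122 and 128 CPM in shNC and 140, 136 and 133 CPM in shMSLN. The lowest shMSLN sample was above the highest shNC sample, at a log2 fold change of 0.13 (SE 0.041, adjusted p = 0.0197). The call was lost without shMSLN replicate 1 or 2 (adjusted p up to 0.0886) and with replicate 1 alone. SYVN1, the ligase of that complex, was at 98.5, 90.5 and 96.2 CPM in shNC and 103, 92.9 and 94.4 CPM in shMSLN, so its groups overlapped (log2 fold change 0.03, adjusted p = 0.71). SEL1L, the adaptor of SYVN1, and EDEM1, which marks glycoproteins for disposal, had log2 fold changes of 0.01 and 0.00, with 95% intervals from -0.08 to 0.09 for each.

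**Figure D2:**
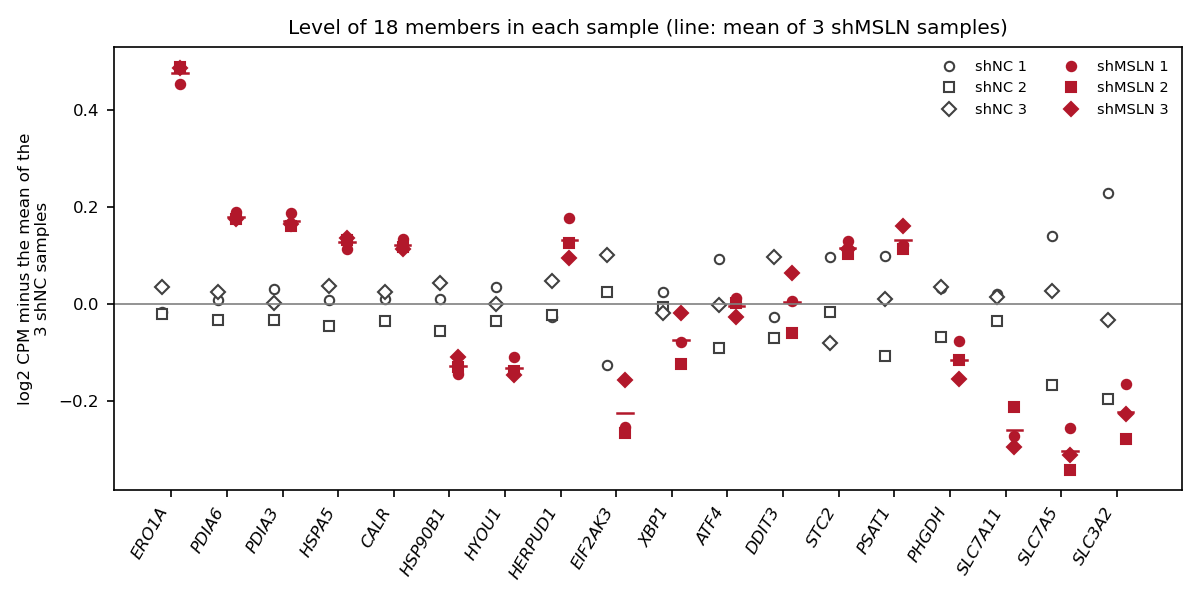
The level of 18 members in each of the 6 samples is plotted as log2 CPM minus the mean of the 3 shNC samples, with open symbols for shNC, filled symbols for shMSLN and a line at the shMSLN mean. ERO1A has all 3 shMSLN samples near 0.48, HSPA5 and HSP90B1 move to opposite sides of 0, and for SLC3A2 and SLC7A5 the shNC samples themselves are spread widely, with replicate 1 highest and replicate 2 lowest.

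The 4 genes for the sensors and XBP1 all had negative estimates, with 2 called, EIF2AK3 and ATF6. These are 50% of a list of 4 genes, where 18.0% of all tested genes were called lower, and neither call held in every setting. Of the exon bases of EIF2AK3 (PERK), 14.4% overlap an antisense gene on the opposite strand. EIF2AK3 measured 20.0, 22.2 and 23.4 CPM in shNC and 18.3, 18.1 and 19.5 CPM in shMSLN. Its groups were separate but nearly touched, and it fell by 0.23 on the log2 scale (SE 0.075, adjusted p = 0.028). DESeq2 did not call it (adjusted p = 0.0886), nor did 6 other settings, among them those without shNC replicate 2 or 3 and without shMSLN replicate 1 or 2 (adjusted p up to 0.142 in the fits with more than 1 shMSLN sample). ERN1 (IRE1) was lower in every shMSLN sample (19.5 to 20.9 CPM) than in any shNC sample (21.1 to 23.2 CPM), without being called (log2 fold change -0.13, adjusted p = 0.156). XBP1 was at 148, 145 and 144 CPM in shNC and 138, 134 and 144 CPM in shMSLN. Its groups overlapped through shMSLN replicate 3 (log2 fold change -0.07, adjusted p = 0.175).

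ATF6 was the sensor whose decrease was absent on log2(TPM + 1), while EIF2AK3 kept its direction and lost its call there. In counts it measured 74.7, 81.3 and 80.0 CPM in shNC and 72.4, 68.5 and 70.1 CPM in shMSLN, and the log2 fold change was -0.16 (SE 0.047, adjusted p = 0.0163). Per length the decrease was not kept, at 35.6, 37.7 and 36.5 TPM in shNC and 38.4, 37.2 and 36.8 TPM in shMSLN. The difference on log2(TPM + 1) was 0.0326 (adjusted p = 0.636 by limma), beside a median of 0.0318 over all genes in that unit. The call in counts was also lost without shNC replicate 3, shMSLN replicate 2 or shMSLN replicate 3. The ratio of the deposited counts to the deposited FPKM, which is scaled for length and depth, gives the transcript length that the quantification assigned, and this length was 4448, 4753 and 4672 bases in shNC and 4121, 4070 and 4222 bases in shMSLN. Every shMSLN sample had the shorter length, a log2 difference of -0.16, so fewer reads and a shorter assigned length came together. CHAC1 had a log2 length difference of 0.20, and no other member exceeded 0.032 among those whose lengths were separate between groups. Whether transcript use of ATF6 differed was not tested.

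**Figure D3:**
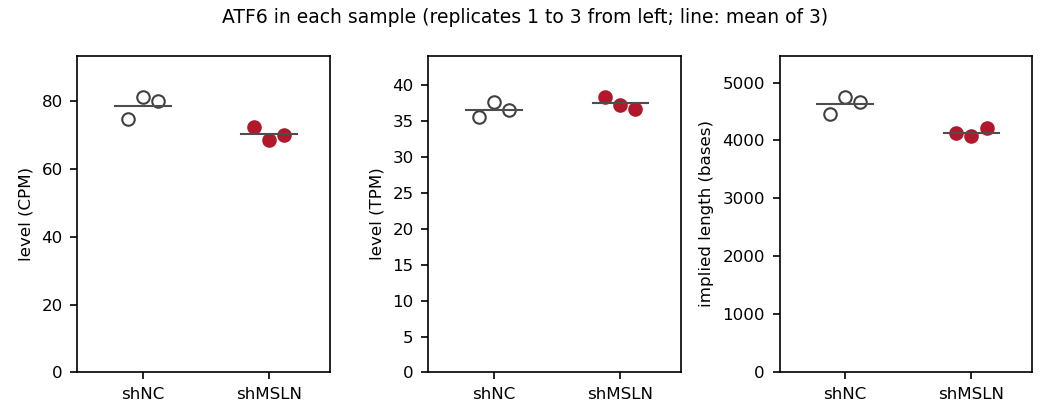
ATF6 is plotted in each sample as CPM, as TPM and as the length in bases implied by counts and FPKM, all axes starting at 0, with a line at the mean of 3 samples. The shMSLN samples are lower than the shNC samples in CPM and in length, and overlap them in TPM.

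Letters known from the promoters of ER stress genes were searched for in RefSeq windows of GRCh38.p14 from 250 bases before to 50 bases after a gene's start, on both strands, which were found for 37 of the 41 members. The ER stress response element (ERSE), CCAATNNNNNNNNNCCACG, is bound by ATF6 with the factor NF-Y. It was in a window of 7 members, HSPA5, HSP90B1, PDIA6, CALR, CANX, CRELD2 and XBP1, and in 0.0916% of all 27305 genes with a window. They are printed because genes that carry the same element had different outcomes here. Capitals mark the fixed bases, and each line reads 5′ to 3′ on the strand of the element.
HSPA5 (chr9:125241386-125241414, reverse strand): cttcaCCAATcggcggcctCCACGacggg
CALR (chr19:12938379-12938407, reverse strand): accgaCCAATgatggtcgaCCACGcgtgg
PDIA6 (chr2:10812848-10812876, reverse strand): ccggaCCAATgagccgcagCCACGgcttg
HSP90B1 (chr12:103930211-103930239, forward strand): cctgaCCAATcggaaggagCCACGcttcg
HSP90B1 (chr12:103930316-103930344, reverse strand): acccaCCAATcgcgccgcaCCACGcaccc
CANX (chr5:179698773-179698801, forward strand): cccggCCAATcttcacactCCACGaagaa
CRELD2 (chr22:49918549-49918577, reverse strand): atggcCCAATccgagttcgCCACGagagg
XBP1 (chr22:28800598-28800626, reverse strand): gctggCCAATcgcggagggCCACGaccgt

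Of these 7 genes, HSPA5, CALR and PDIA6 rose, HSP90B1 with its pair of matches fell, and CANX, CRELD2 and XBP1 were not called. The shorter form ERSE-II, ATTGGNCCACG, was in windows of SDF2L1, HYOU1 and HERPUD1 and in 0.0696% of all genes. HYOU1 fell, HERPUD1 rose and SDF2L1 was not called. A match is a run of letters and does not show binding. The matches overlapped no match of another motif searched.
HERPUD1 (chr16:56932016-56932044, forward strand): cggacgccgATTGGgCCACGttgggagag
HYOU1 (chr11:119057265-119057293, forward strand): cgcgtactcATTGGaCCACGtcccaggcc
HYOU1 (chr11:119057371-119057399, forward strand): cggcctgggATTGGaCCACGtcacggggc
SDF2L1 (chr22:21642105-21642133, reverse strand): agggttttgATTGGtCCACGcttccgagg

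In the ATF4 arm, 0 of 18 genes rose, 4 fell and 14 were not called, with a median log2 fold change of 0.00. None of the 10 regulators and stress effectors was called by edgeR, 0 had an unadjusted p below 0.05, and the lowest adjusted p was 0.159. DESeq2 and limma-voom called 0 of them as well, and over the 17 settings 1 call was made, STC2 as higher without shNC replicate 1. For 9 of the 10 the 95% interval lay within 0.5 of 0 on the log2 scale, the exception being VLDLR, whose interval reached 0.54.

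ATF4 itself measured 302, 266 and 283 CPM in shNC and 286, 283 and 278 CPM in shMSLN. The shMSLN samples lay inside the shNC range, with a log2 fold change of -0.01 and a 95% interval from -0.10 to 0.09 (adjusted p = 0.935). DDIT3, which encodes the stress-induced factor CHOP, was at 22.3, 21.6 and 24.3 CPM in shNC and 22.8, 21.8 and 23.7 CPM in shMSLN. Its groups overlapped fully (log2 fold change 0.00, 95% interval -0.14 to 0.15), and 27.2% of its exon bases overlap MARS on the opposite strand. TRIB3, a pseudokinase and feedback target of ATF4 and CHOP, was at -0.05 (95% interval -0.21 to 0.12) on the same scale. PPP1R15A, the GADD34 phosphatase subunit that restores translation, was at 0.02 (95% interval -0.07 to 0.12).

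ATF5, an ATF4-related transcription factor, had a log2 fold change of 0.04, with 21.2% of its exon bases overlapping NUP62 on the opposite strand. CHAC1, which degrades glutathione, had a log2 fold change of 0.00 at 3.0 to 3.9 CPM, where the 95% interval spanned -0.35 to 0.34. SESN2, a stress-induced inhibitor of mTORC1, and NUPR1, a stress-induced chromatin protein, were at 0.01 and 0.04. STC2, a secreted glycoprotein, measured 31.1, 28.7 and 27.5 CPM in shNC and 31.8, 31.2 and 31.5 CPM in shMSLN. Its shMSLN samples were all above the highest shNC sample, by little, and the log2 fold change of 0.11 was not called (adjusted p = 0.159), whereas without shNC replicate 1 it was 0.16 (adjusted p = 0.0404). VLDLR, a lipoprotein receptor, was at 3.61, 3.49 and 2.95 CPM in shNC and 3.55, 3.59 and 4.35 CPM in shMSLN, with overlapping groups (log2 fold change 0.19, adjusted p = 0.394).

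Of the 5 amino acid and one-carbon enzymes, PHGDH was called, and its neighbour in the same pathway moved the other way without being called. PHGDH, the first enzyme of serine synthesis, measured 219, 204 and 219 CPM in shNC and 203, 198 and 192 CPM in shMSLN. The groups were separate by a narrow margin, and the level fell by 0.12 on the log2 scale (SE 0.040, adjusted p = 0.038). PSAT1, the second enzyme of the pathway, was at 82.5, 71.4 and 77.5 CPM in shNC and 83.8, 83.3 and 86.2 CPM in shMSLN. Its shMSLN samples were also all outside the shNC range, above it (log2 fold change 0.13, SE 0.052, adjusted p = 0.0646). PHGDH's call was lost in 6 of the 17 settings, among them those without shNC replicate 3, shMSLN replicate 2 or shMSLN replicate 3, and PSAT1 was called in 4. PSAT1 has 4 pseudogenes by name in the annotation, as do ATF4 and ASNS, while MTHFD2 has 7 and XBP1 has 1, none listed in the table.

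ASNS, which makes asparagine, had a log2 fold change of 0.01 with a 95% interval from -0.13 to 0.14. SHMT2 and MTHFD2, enzymes of the mitochondrial folate cycle, were at -0.10 (adjusted p = 0.113) and 0.08 (adjusted p = 0.26). In the annotation, 27.2% of the MTHFD2 exon bases overlap SLC4A5 on the opposite strand and 44.6% of those of ASNS overlap another transcript on the same strand. SHMT2 was called without shNC replicate 2, and MTHFD2 without shNC replicate 1 and on log2(TPM + 1).

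The 3 amino acid transporters among the members were all called lower, against 18.0% of all tested genes. They were the only list among the 6 in which every gene was called, and the lists were chosen with earlier results known. Amino acid transporters outside the members, named after their values were seen, did not all fall. SLC1A4 (log2 fold change -0.22) and SLC6A9 (-0.65) were called lower, and SLC38A2 (0.11) was called higher. SLC1A5 (0.06), SLC7A1 (-0.02) and SLC43A1 (-0.12) were not called. SLC7A5 encodes the LAT1 light chain, which imports large neutral amino acids such as leucine. It measured 452, 365 and 417 CPM in shNC and 343, 323 and 330 CPM in shMSLN. The shNC samples spread over more than the gap between the groups, and the level fell by 0.31 on the log2 scale (SE 0.058, 95% interval -0.43 to -0.18, adjusted p = 0.000901), to 0.807 of the shNC level. SLC7A5 has 2 pseudogenes by name in the annotation, none listed in the table. Leaving out shNC replicate 1, the highest sample, gave -0.24 (adjusted p = 0.000241), and leaving out shNC replicate 2 gave -0.39.

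SLC7A11 encodes xCT, which imports cystine in exchange for glutamate. It was at 142, 137 and 141 CPM in shNC and 116, 121 and 114 CPM in shMSLN. Here the shNC samples were close together and clear of the shMSLN samples, and the log2 fold change was -0.26 (SE 0.040, 95% interval -0.35 to -0.17, adjusted p = 0.000161). With ERO1A it was the other member called in each of the 17 settings.

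SLC3A2 encodes 4F2hc, the heavy chain that both LAT1 and xCT need at the cell surface, and its values in every sample are given because of that link, which was chosen after they were seen. It measured 280.0, 208 and 234 CPM in shNC and 213, 197 and 204 CPM in shMSLN. The groups overlapped, since shMSLN replicate 1 lay above shNC replicate 2. The log2 fold change was -0.23 (SE 0.076, adjusted p = 0.0272). Without shNC replicate 1 it was -0.11 (adjusted p = 0.0562), and the call was lost in 9 of the 17 settings, DESeq2 among them (adjusted p = 0.186).

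The order of the 3 shNC samples bears on these values. In all 3 transporters shNC replicate 1 was the highest and shNC replicate 2 the lowest of the controls, and the same order was found in 8 of the 18 ATF4-arm genes (44.4%), in 14 of 20 aminoacyl-tRNA synthetase genes (70.0%) and in 22.4% of all tested genes. The median log2 difference between these 2 control samples was 0.31 over the transporters, 0.19 over the 5 enzymes, 0.12 over the synthetases and -0.01 over all tested genes. In 12 of the 15 folding genes (80%) shNC replicate 2 was the lowest control, against 34.1% of all tested genes. The part of this spread in the differences between groups was not tested.

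A short motif of the amino acid response, the C/EBP-ATF response element (CARE), was searched as TGATGNAA in the same windows. It was found in HERPUD1, CHAC1, ASNS and SLC3A2, and in 4.46% of all genes. Of these, HERPUD1 rose, SLC3A2 was called lower, and CHAC1 and ASNS were not called. All 4 matches are printed because the outcomes differed, that of SLC3A2 lying after the gene's start.
CHAC1 (chr15:40953252-40953279, reverse strand): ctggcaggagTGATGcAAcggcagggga
ASNS (chr7:97872459-97872486, reverse strand): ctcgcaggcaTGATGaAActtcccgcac
HERPUD1 (chr16:56931956-56931983, reverse strand): gggcacgggcTGATGcAAcccgccgcgt
SLC3A2 (chr11:62881726-62881748, reverse strand): ggagcTGATGtAAggagtcctgc

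The chaperone arm was set beside the ATF4 arm in each sample by taking, over the genes of each arm, the median log2 level relative to the shNC mean. The chaperone median minus the ATF4 median was -0.06, 0.03 and 0.02 in the shNC samples and 0.07, 0.12 and 0.02 in the shMSLN samples. The groups overlapped through shMSLN replicate 3. The mean was -0.0032 in shNC and 0.0705 in shMSLN, a shift of 0.0737 beside an SD of 0.053 within groups, and it was not tested. From the fitted fold changes, the chaperone median exceeded the ATF4 median by 0.036, and without shMSLN replicate 2 the difference was -0.0031. By calls, 33.3% of the chaperone arm was higher and 20% lower, and 0% of the ATF4 arm was higher and 22.2% lower, against 16.6% and 18.0% of all tested genes. In the ATF4 arm these counts moved to 3 higher without shNC replicate 1 and to 2 higher and 2 lower on log2(TPM + 1), and the difference between the arms in calls was not tested.

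Per length, the most abundant members were folding genes, whereas others of that list, such as DNAJB9 at 12.9 TPM and DNAJC3 at 31.1 TPM in shNC, lay among the ATF4 arm. In shNC, HSP90B1 averaged 2859 ± 55.7 TPM (SD, n = 3), CALR 2810 ± 23.4 TPM, PDIA3 1232 ± 7.93 TPM and HSPA5 1059 ± 15.7 TPM. HSP90B1 and CALR could not be ordered in shNC since their samples overlapped, while each shNC sample of CALR exceeded those of PDIA3, and those of PDIA3 exceeded HSPA5. ATF4 was the most abundant gene of its arm at 437 ± 19.5 TPM, followed by SLC3A2 at 269 ± 35.9 TPM and PHGDH at 253 ± 4.90 TPM, and these latter 2 overlapped. VLDLR was the lowest member at 0.787 ± 0.0924 TPM. Of the 40 pairs of neighbours in this order, 22 had separate shNC samples.

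**Figure D4:**
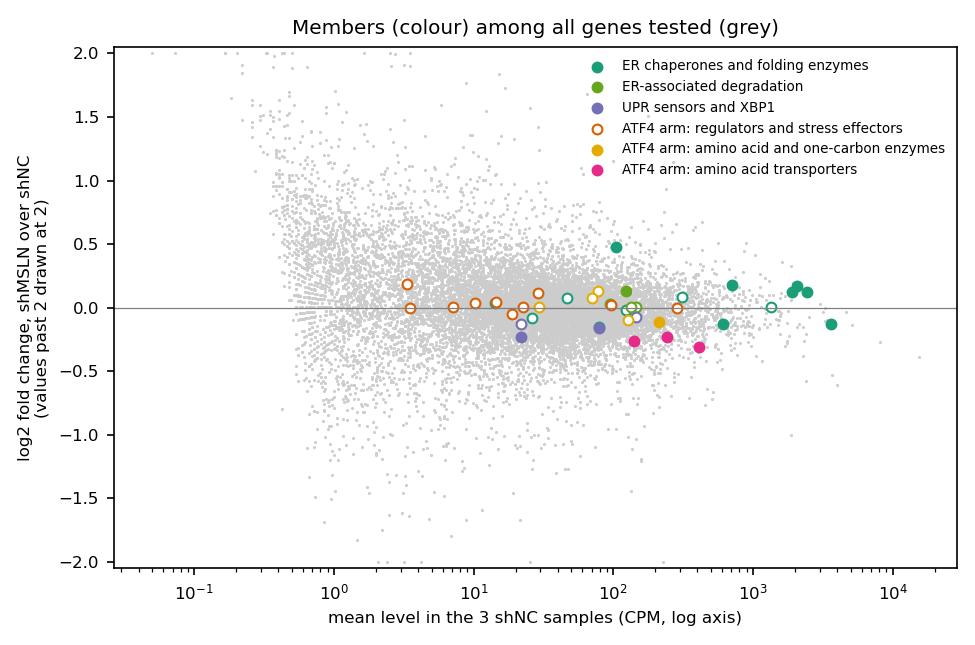
Each tested gene is plotted by its mean level in the 3 shNC samples (CPM, log axis) and its log2 fold change, shMSLN over shNC, in grey, with the 41 members in colour by role and filled where the adjusted p is below 0.05. Among the 5 most highly expressed folding genes, CANX has an open point and the other 4 have filled points at small fold changes, and the members lie inside the grey cloud, with ERO1A at 0.48 the highest of them.

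Other genes of the same pathways were examined by lists of 4 kinds. Of 35 tested genes for further ER folding, degradation and stress functions, 10 rose (28.6%), 7 fell (20%) and 18 were not called, against 16.6% and 18.0% of all tested genes, with a median log2 fold change of 0.04. OS9, a lectin that delivers misfolded glycoproteins to the SYVN1 complex, rose by 0.44 (log2), from 198 to 201 CPM in shNC to 269 to 271 CPM in shMSLN (adjusted p = 2.04e-07), and UGGT2 by 0.39 (adjusted p = 0.00717). UGGT1, the main glycoprotein folding sensor and a relative of UGGT2, fell by 0.33 (adjusted p = 0.000406), and MBTPS2, the protease that makes the second cut in ATF6, fell by 0.35 (adjusted p = 0.00372).

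Of 30 further tested genes of the ATF4 and amino acid response, 3 rose (10%), 9 fell (30%) and 18 were not called, beside the same 16.6% and 18.0% of all tested genes, with a median of -0.07. CEBPB, a transcription factor induced by amino acid shortage, fell by 0.60 (log2, adjusted p = 1.63e-07), from 131 to 140 CPM in shNC to 86.1 to 94.3 CPM in shMSLN. SLC6A9, a glycine transporter, fell by 0.65 (adjusted p = 0.00189) at under 8 CPM. ALDH1L2, a mitochondrial folate enzyme, rose by 0.24 (adjusted p = 0.0196), and DDIT4, a stress-induced inhibitor of mTORC1, by 0.22 (adjusted p = 0.00161).

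Among the 20 aminoacyl-tRNA synthetases, which charge tRNA with amino acids and include known ATF4 targets, 1 rose and 6 fell, with a median of -0.05. These are 5% higher and 30% lower, against 16.6% and 18.0% of all tested genes. The share called in all, 35%, was near the 34.6% of all tested genes, and the split by direction was not tested. KARS1, for lysine, fell by 0.38 (log2, adjusted p = 2.21e-06), and VARS1, for valine, by 0.35 (adjusted p = 0.0045).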

How the data were processed

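RNA-Seq of 3 shNC and 3 shMSLN samples of HCC1806/HM3 cells was examined. The authors deposited 1 table with an estimated count, a TPM value and an FPKM value for each gene and sample. The genome build in the submitters' processing notes is GRCh38.p13, and the aligner, quantifier and annotation are not given in the sources used here. The shMSLN columns hold missing marks, and 16573 genes without any were used. After rounding, filterByExpr left 14552 genes, which were fitted by glmQLFit with TMM scaling and no covariate in edgeR 4.0.16 (R 4.3.3), tested by glmQLFTest and adjusted by Benjamini-Hochberg. CPM values use TMM-scaled library sizes. TPM values were used for levels between genes, and FPKM values only, with the counts, for assigned lengths.

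Alternatives were RLE and upper-quartile scaling, filters of at least 1 count in all or 10 counts in every sample, DESeq2 1.42.0, limma-voom and limma 3.58.1 on log2(TPM + 1), a robust dispersion fit, a block for the replicate number, missing values as 0, leaving out each sample, and shMSLN replicate 1 alone. The edgeR, DESeq2 and limma-voom fits were tried on simulated counts in which few genes changed, by more than any member did here. Changes of the members' size were not simulated. The members, lists and rules were chosen with earlier results of these data known. Values in every sample are given for members called with a log2 fold change of at least 0.4 in size, for the 2 of smallest adjusted p in each of 6 role lists and for HSPA5, XBP1, ATF4 and DDIT3, with other members described by their role. HSP90B1 and SLC3A2 were added to these after their values were seen. Of each other list, called genes with the 2 largest rises and falls are named. A gene that this rule covers is not reported here. Gene coordinates and overlaps are from GENCODE 29, and promoter windows from RefSeq on GRCh38.p14.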

Additional observations from a re-analysis of the deposited data

How the results depend on the processing

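Of the 15 called members, 2 were called in each of the 17 alternatives, 5 more in each except shMSLN replicate 1 alone, and 8 were lost elsewhere. Of the 26 uncalled members, 21 were called in none. With shMSLN replicate 1 alone, which assumes that this sample varies like the shNC samples, 2 members were called, 1 chaperone-arm gene higher and 0 lower, 1 ATF4-arm gene lower, and 1797 genes in all, against 5032. On log2(TPM + 1), which moved the median of all genes to 0.0318, 1 chaperone-arm gene was lower, and 2 ATF4-arm genes were higher and 2 lower. The log2 difference of ATF6 was 0.0326 in that setting (adjusted p = 0.636 by limma), close to that median. With upper-quartile scaling, which moved the median of all genes to 0.031, 1 ATF4-arm gene was higher and 2 lower. Leaving out each sample in turn left 5 chaperone-arm genes higher each time and 1 to 3 lower, and 0 to 3 ATF4-arm genes higher (3 without shNC replicate 1) and 2 to 5 lower. The lowest counts of lower genes came without shMSLN replicate 2 or 3, or, for the ATF4 arm, also without shNC replicate 3. The fewest members, 8, were called without shMSLN replicate 2 and the most, 17, without shNC replicate 1.

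Same-numbered samples correlated in their deviations by 0.165, 0.0764 and 0.0718, and each of the 6 samples correlated best with its own number. The labels do not state that the numbers pair samples, so the replicate block was run as an alternative only. With the replicate block, 16 members were called, 1 ATF4-arm gene (PSAT1, adjusted p = 0.0264) as higher. In all, 5789 genes were called with the block, against 5032 without it. The cause of these changes was not tested. The members with the fewest reads, VLDLR and CHAC1 (60.4 and 63.5 on average in shNC), had the widest intervals. SDF2L1, at 474 reads, also had a wide interval, and its shNC samples had a coefficient of variation (SD over mean) of 19.8%. The smallest difference that could be detected at this depth was not tested.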

Other observations

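Heat-shock genes for chaperones outside the ER, cytosolic apart from the mitochondrial HSPD1 and HSPE1, gave 0 called as higher and 5 called as lower of 14 tested. These are 35.7% lower and 35.7% called in all, against 18.0% lower, 16.6% higher and 34.6% called in all over all tested genes, and the median log2 fold change was -0.08. HSPH1, a nucleotide exchange factor of HSP70, measured 136, 128 and 125 CPM in shNC and 98.4, 104 and 99.7 CPM in shMSLN (log2 fold change -0.36, adjusted p = 1.63e-05 by edgeR's quasi-likelihood test). HSPA8, the constitutive HSP70, measured 564, 513 and 535 CPM in shNC and 437, 442 and 439 CPM in shMSLN (log2 fold change -0.29, adjusted p = 3.82e-05). For both genes all shMSLN samples were below all shNC samples. The other called genes, named after their values were seen, were HSPD1, the mitochondrial chaperonin, at -0.29, CHORDC1 at -0.25 and HSP90AA1 at -0.21. In 7 of the 14 genes (50%) shNC replicate 1 was the highest and shNC replicate 2 the lowest control, against 22.4% of all tested genes, and the part of that order in these differences was not tested.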
